A study of Mus musculus with 6 samples.

Results

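The genes described here are 10 genes of the tuft cell programme: Avil, Rgs13, Trpm5, Dclk1, Pou2f3, Il25, Gnat3, Plcb2, Gfi1b and Chat. They were read from whole thymus RNA on single-channel Affymetrix mouse arrays, each gene through the probe sets (groups of short probes against 1 transcript) whose platform annotation gives its symbol and no other. This rule found 19 of the 45037 probe sets that are not controls, for 9 of the 10 genes. Gnat3 had no such probe set and has no value here. The samples were thymus of adult female mice of 2 F1 crosses. The AKR cross, (AKR/J x FVB/NJ)F1, was read on 3 arrays, and the DBA cross, (DBA/2J x FVB/NJ)F1, on 3 others. Every animal thus carries 1 FVB/NJ genome, and the crosses differ in the other parental inbred strain. The labels name no treatment and do not say whether each array holds 1 animal, so p-values measure only the spread between these arrays, part or all of which can be technical. The study asks how basal thymic expression differs between these genotypes.

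Tuft cells are rare chemosensory epithelial cells with an apical tuft of microvilli, and the thymic medulla holds a population of them. In the pathway shared with taste cells, G protein-coupled receptors act through gustducin (Gnat3) and phospholipase C beta 2 (Plcb2) to release calcium, which opens the cation channel Trpm5. Pou2f3 is the POU domain transcription factor that tuft cells require, and the cytokine IL-25, made from Il25, is one of their known products. Several of these genes are also expressed in other cells. Rgs13 is known from germinal centre B cells and mast cells, Gfi1b from red cell and platelet precursors, Plcb2 from blood cells, Chat from neurons and some lymphocytes, and Dclk1 from neurons.

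The genes were chosen by their known role together with results of the cross comparison, among them the measured differences of Rgs13 and Avil. The cross differences of the listed genes are therefore given as a description, with no p-value. All values are on a log2 scale, and each difference is the AKR cross minus the DBA cross, given ± its standard error (SE). Below 0, the DBA cross was the higher one. A probe set entered the fit across all probe sets where at least 3 of 6 arrays exceeded their own 40th percentile, a log2 value of 5.21 to 5.28. It was called where the adjusted p from limma with Benjamini-Hochberg adjustment over all 27385 such probe sets was under 0.05. In bulk tissue, fewer cells of a type and less RNA per cell cannot be told apart.

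Rgs13 and Avil were higher in the DBA cross, Dclk1 read differently on different probe sets, and the rest of the listed genes were dim or lay close together in both crosses. Only 6 of the 19 probe sets passed the filter, 1 each for Avil, Rgs13, Dclk1, Pou2f3, Plcb2 and Gfi1b. Of these 6, 3 were called, against 27.2% of all probe sets tested, with 2 on the DBA side (15.0% of all tested) and 1 on the AKR side (12.2% of all tested). The DBA-side calls are Rgs13 and Avil, whose measured values helped to choose the list, so nothing is read from these counts. The 13 others did not pass, and 12 of the 19 lay below the 40th percentile on every array. Over all 19 the median difference was -0.02, against 0.03 over all probe sets. The crosses did not overlap for 6 of the 19, against 35.5% of all probe sets, with 4 on the DBA side (16.3%) and 2 on the AKR side (19.3%). Leading tuft cell genes such as Trpm5, Il25 and Chat were thus close to the dim end of the arrays, and the name of the list says what these genes are known for, not that tuft cells were measured in these samples. The 9 thymocyte markers tested, the defining markers of the labelled tissue, were bright on every array, with a mean log2 level that ran from 11.5 to 11.7.

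The promoters of Rgs13 and Avil are shown because these genes had the largest differences among the probe sets that passed the filter. RefSeq promoter windows (GRCm38.p6) were found for 8 of the 10 genes, in 9 windows. Pou2f3 and Il25 were not among them. Each sequence below is the 250 bases before the annotated start, 5′ to 3′ on the strand of the gene, and capitals mark letters of the octamer family described next. Avil lies on the plus strand at chr10:127000459-127000708 and Rgs13 on the minus strand at chr1:144177373-144177622.
Avil promoter: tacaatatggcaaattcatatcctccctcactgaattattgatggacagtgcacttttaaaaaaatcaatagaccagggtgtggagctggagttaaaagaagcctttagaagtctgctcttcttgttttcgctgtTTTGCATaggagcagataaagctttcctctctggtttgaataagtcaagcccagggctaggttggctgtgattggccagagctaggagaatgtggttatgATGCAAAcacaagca
Rgs13 promoter: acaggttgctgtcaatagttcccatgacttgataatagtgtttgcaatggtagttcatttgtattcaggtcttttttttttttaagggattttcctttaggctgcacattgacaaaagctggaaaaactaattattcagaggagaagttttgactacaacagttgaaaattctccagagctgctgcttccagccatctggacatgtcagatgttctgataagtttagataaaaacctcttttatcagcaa
The octamer ATGCAAAT is the recognition motif of POU factors of the Pou2f class. It was searched on both strands, as were ATGCNAAT and ATGCANAT with 1 open letter, which contain the octamer as a special case, and its 2 overlapping 7-letter parts ATGCAAA and TGCAAAT. The whole octamer was in 0 of the 9 windows and in 1.6% of all 32851 windows of the same length. Both forms with an open letter were also in 0 of the 9, against 2.86% and 3.71% of all windows. ATGCAAA was in 1 of the 9, the Avil window, against 4.12% of all windows, and it stood there in 2 copies, at 15 to 9 bases before the start and, on the other strand, at 115 to 109 bases before it. TGCAAAT was in 1 of the 9, the Chat window, at 20 to 14 bases before the start, against 3.56% of all windows. The Rgs13 window held none of these letters in order, and the shorter parts were added after the octamer had been searched.

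Rgs13 encodes a regulator of G protein signalling, which speeds the return of G protein alpha subunits to their inactive state. Its 1 probe set, 1442263_at, read 3.32, 3.95 and 3.46 on AKR arrays 1, 2 and 3 and 5.81, 5.59 and 5.57 on DBA arrays 1, 2 and 3. The crosses did not overlap, and the lowest DBA array lay 1.62 above the highest AKR array. Their means were 3.58 ± 0.33 and 5.66 ± 0.13 (mean ± SD, n = 3 each), a difference of -2.08 ± 0.16 (SE) or 4.23-fold higher in the DBA cross. No AKR array reached its 40th percentile for this probe set, the median percentile being 10.01, while the DBA arrays had a median percentile of 45.0. Rgs13 thus entered the fit only through the cross in which it was high, and its fold is not exact. Over the alternative settings in which it was in the fit, its difference ran from -2.27 to -1.95. It did not pass the filter at the 60th percentile.

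Avil encodes advillin, an actin-binding protein of the villin and gelsolin family that is found in microvilli of tuft cells and in sensory neurons. Probe set 1419148_at read 6.13, 6.10 and 5.996 on AKR arrays 1, 2 and 3, and 7.13, 6.76 and 6.89 on DBA arrays 1, 2 and 3. Every DBA array was above every AKR array, with 0.63 between the nearest of them. The means were 6.08 ± 0.07 and 6.92 ± 0.19 (mean ± SD, n = 3 each), a difference of -0.85 ± 0.11 (SE), which is 1.80-fold. Unlike Rgs13, Avil lay above the 40th percentile on all 6 arrays, from percentile 51.1 to 64.9. Over the 14 alternative settings its difference ran from -0.93 to -0.74.

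Pou2f3 and Plcb2 were as bright as Avil within their arrays, from percentile 60.01 to 66.1, and lay close together in both crosses. Pou2f3, read by 1450507_at, stood at 6.95, 7.07 and 6.80 in the AKR cross against 6.74, 6.95 and 6.72 in the DBA cross. Its crosses overlapped, and its difference was 0.13 ± 0.11 (SE), which was not called. Plcb2, read by 1452481_at, stood at 7.04, 7.06 and 7.07 in the AKR cross against 7.06, 7.18 and 6.99 in the DBA cross. The AKR arrays lay inside the range of the DBA arrays, and the difference was -0.02 ± 0.09 (SE), also not called. Gfi1b, a zinc finger repressor, lay near the filter line, with 2 AKR arrays and 1 DBA array above it. Its values were 5.35, 5.42 and 5.04 on the AKR arrays and 4.94, 5.29 and 4.98 on the DBA arrays, which overlapped, and its difference of 0.20 ± 0.14 (SE) was not called.

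**Figure D1:**
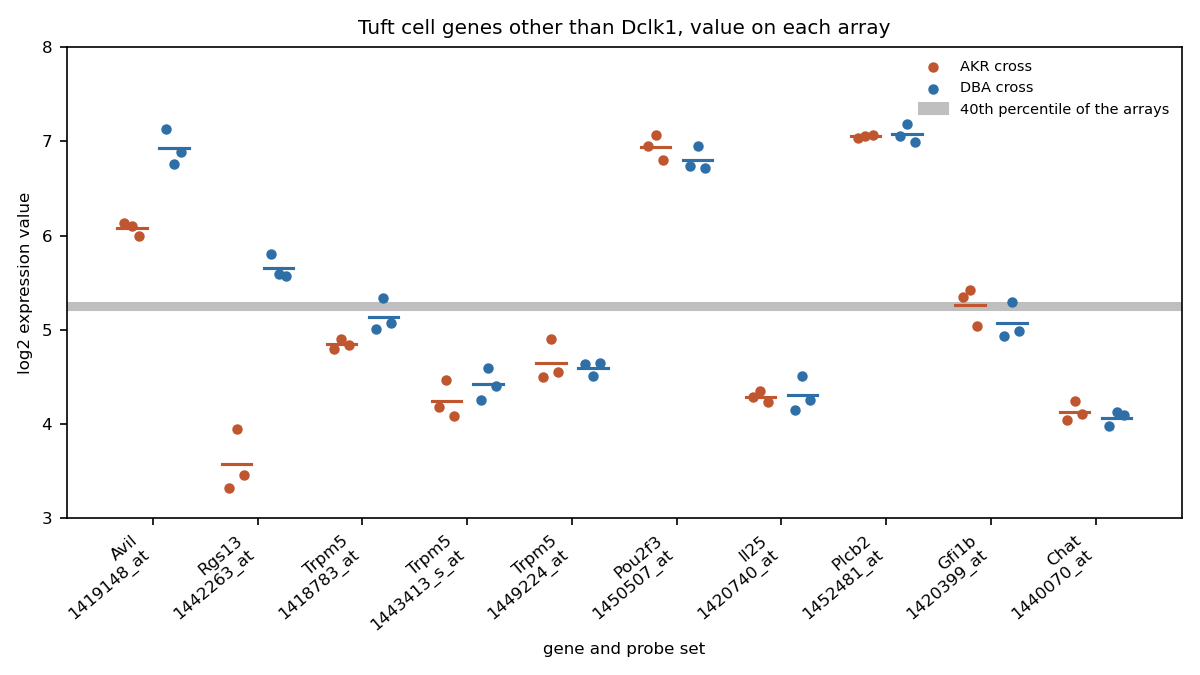
The log2 expression value of each tuft cell gene other than Dclk1 on each of 6 arrays, by probe set, with orange points for the 3 AKR arrays, blue points for the 3 DBA arrays, a line at each mean and a grey band for the 40th percentiles of the arrays (5.21 to 5.28). The crosses are far apart for Rgs13 (means 3.58 and 5.66) and apart for Avil (6.08 and 6.92), while Pou2f3 and Plcb2 overlap and most other probe sets lie under the band.

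The genes Trpm5, Il25 and Chat were dim. Trpm5, the cation channel, had 3 probe sets, none of which passed the filter. The brightest of them, 1418783_at, read 4.79, 4.91 and 4.84 on the AKR arrays and 5.01, 5.34 and 5.07 on the DBA arrays, and only DBA array 2 was above the 40th percentile. The crosses of this probe set did not overlap, with 0.11 between the nearest arrays, and its difference was -0.29 ± 0.11 (SE, from the fit without a filter). The other two differed by -0.17 ± 0.13 (1443413_s_at) and 0.05 ± 0.12 (1449224_at), and their crosses overlapped. The last of these was designed on the same GenBank entry as 1418783_at, so 2 probe sets on 1 target pointed different ways by small amounts.

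Il25, the tuft cell cytokine gene, read 4.28, 4.36 and 4.23 on the AKR arrays and 4.15, 4.51 and 4.25 on the DBA arrays (1420740_at). It lay between percentile 23.6 and 28.7 on all arrays, and the DBA arrays spanned the AKR arrays, with a difference of -0.01 ± 0.11 (SE, fit without a filter). Chat, the gene of choline acetyltransferase, which makes acetylcholine, read 4.04, 4.24 and 4.11 on the AKR arrays and 3.98, 4.12 and 4.09 on the DBA arrays (1440070_at). It lay between percentile 20.4 and 23.2 on all arrays, and its difference was 0.06 ± 0.09 (SE, fit without a filter). Neither probe set was called in the fit without a filter.

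Dclk1, which encodes a doublecortin-like kinase used as a tuft cell marker in the gut, had 9 probe sets that differed in direction. Their values ran from 3.25 to 5.90, 6 were higher in the DBA cross by mean and 3 in the AKR cross, and their median difference was -0.03. The only one that passed the filter, 1436659_at, read 5.61, 5.60 and 5.90 on the AKR arrays and 5.34, 5.25 and 5.22 on the DBA arrays. Its crosses did not overlap, and it was called higher in the AKR cross, with a difference of 0.44 ± 0.11 (SE). That call was lost without AKR replicate 3 (difference 0.34), DBA replicate 2 (0.43) or DBA replicate 3 (0.41).

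Another Dclk1 probe set, 1450863_a_at, went the opposite way. It read 4.39, 4.44 and 4.42 on the AKR arrays and 5.13, 5.23 and 4.93 on the DBA arrays, all below the 40th percentile, with 0.48 between the nearest arrays of the crosses. Its difference was -0.68 ± 0.11 (SE, fit without a filter). Probe set 1423125_at, designed on the same GenBank entry, differed by -0.00 ± 0.10 with crosses that overlapped. A further probe set, 1424271_at, read 4.75, 4.80 and 4.78 on the AKR arrays and 4.34, 4.40 and 4.54 on the DBA arrays, a difference of 0.35 ± 0.10 (SE, fit without a filter). The 2 others on its GenBank entry differed by -0.03 (1424270_at) and 0.18 (1451289_at), and those on other entries by -0.36 (1435940_at), -0.06 (1446190_at) and -0.15 (1451917_a_at), all with overlapping crosses. No direction for Dclk1 as a gene can be read from these probe sets. In the fit without a filter, 5 of the 19 probe sets of the list were called, against 16.7% of all probe sets: Rgs13, Avil and 1450863_a_at of Dclk1 higher in the DBA cross (3 of 19, against 9.36%), and 2 of Dclk1 higher in the AKR cross (2 of 19, against 7.34%).

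**Figure D2:**
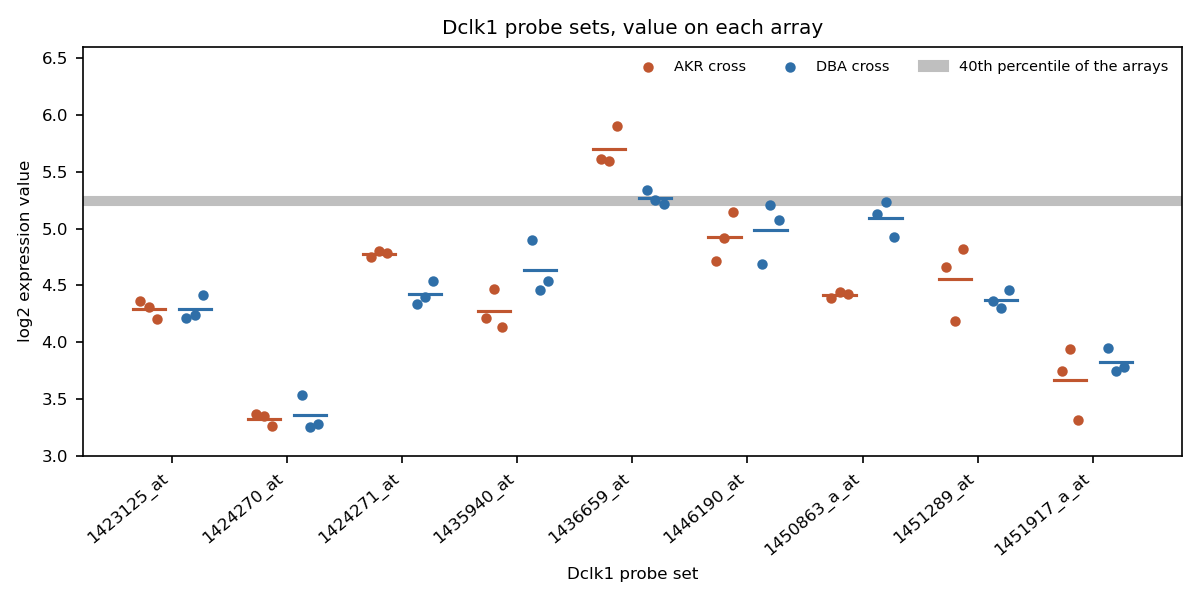
The log2 expression value of each of 9 Dclk1 probe sets on each array, with orange points for the AKR arrays, blue points for the DBA arrays, a line at each mean and a grey band for the 40th percentiles of the arrays. Probe sets 1424271_at and 1436659_at are higher in the AKR cross and 1450863_a_at is higher in the DBA cross, with no overlap in each case, and the other probe sets overlap.

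Within a cross, array 2 was often the highest, for the listed probe sets as for dim probe sets in general. AKR array 2 was the highest of its cross for 12 of the 19 probe sets, 4 of the 9 of Dclk1 and 8 of the 10 others. Among the 13 that did not pass the filter it was the highest for 9, against 45.6% of all 17652 probe sets that did not pass and 27.8% of those that did. DBA array 2 was the highest of its cross for 9 of the 19 and for 6 of these 13, against 38.4% of all that did not pass and 28.2% of those that did. The 40th percentile of AKR array 2 was 5.28, and those of AKR arrays 1 and 3 were 5.23 and 5.22, so dim values as a whole were slightly higher on that array. In the AKR cross Avil and Rgs13 did not follow 1 array: Avil was highest on AKR array 1 and Rgs13 on AKR array 2. In the DBA cross both were highest on DBA array 1, as were 41.2% of all probe sets that passed the filter.

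Other genes of the tuft cell programme were called in both directions. A list of 45 further genes was set down, 39 had a probe set and 27 passed the filter. Of these 27 genes, 5 were called (limma, adjusted p under 0.05), against 25.0% of all 12855 genes tested, with 2 on the DBA side (11.9% of all genes) and 3 on the AKR side (13.1% of all genes). The median difference over the 27 was 0.00, against 0.03 over all genes. Several of the 27 were among the brightest on the arrays, such as Cd24a (percentile 98.8 to 99.1) and Fyb (98.5 to 98.9). In whole thymus such values can come from other cells. Neither the counts nor the median is thus a readout of tuft cells alone. The count depended on single arrays. The counts on the DBA side and on the AKR side were 1 and 2 without AKR replicate 1, 1 and 0 without AKR replicate 2, 4 and 1 without AKR replicate 3, 1 and 1 without DBA replicate 1, 1 and 2 without DBA replicate 2, and 2 and 3 without DBA replicate 3.

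Nrep was higher in the DBA cross and was called in all 14 alternative settings. It read 6.37, 6.13 and 6.48 on the AKR arrays and 7.25, 7.06 and 7.19 on the DBA arrays. Its crosses did not overlap, and the difference was -0.84 ± 0.11 (SE, adjusted p = 0.000930, limma), 1.79-fold. Il13ra1, a chain of the IL-13 receptor, was also higher in the DBA cross, at 6.80, 6.78 and 6.98 against 7.29, 7.25 and 7.14, with a difference of -0.37 ± 0.10 (SE, adjusted p = 0.0208, limma). The Il13ra1 call was lost without AKR replicate 1, AKR replicate 2, DBA replicate 1 or DBA replicate 2, with adjusted p up to 0.0709 (limma). It had 3 other tested probe sets, of which 2 were also called higher in the DBA cross.

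Of 5 taste signalling genes tested, 2 were called, both higher in the AKR cross (13.1% of all genes), and 3 were not called, with a median difference of 0.33. Without AKR replicate 2 the count was 0, and it was 1 without AKR replicate 3 or DBA replicate 1. Itpr3, the calcium release channel downstream of Plcb2, read 8.61, 8.76 and 8.70 on the AKR arrays and 8.33, 8.43 and 8.30 on the DBA arrays, a difference of 0.33 ± 0.08 (SE, adjusted p = 0.0143, limma). Without AKR replicate 2 it was not called (adjusted p = 0.0513, limma). Tas1r1, a subunit of the umami taste receptor, read 5.63, 6.06 and 5.89 against 5.22, 5.35 and 5.58, a difference of 0.48 ± 0.14 (SE, adjusted p = 0.0318, limma). This call no longer held without AKR replicate 2, AKR replicate 3, DBA replicate 1 or DBA replicate 2 (adjusted p up to 0.108, limma). Gng13, the gamma subunit that pairs with gustducin, differed by 0.41 ± 0.14 and was not called (adjusted p = 0.0528, limma), while another of its probe sets was called in the opposite direction. The beta subunit gene Gnb3 and the bitter receptor gene Tas2r105 were below the 40th percentile on all arrays.

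The remaining groups held few calls. Of 9 genes of cytosolic signalling tested, 1 was called higher in the DBA cross (11.9% of all genes) and 1 in the AKR cross (13.1%). The former was Nrep and the latter Matk, a kinase gene (0.31 ± 0.10, adjusted p = 0.0375, limma). The Matk call was lost in 6 of 13 alternatives, namely without a filter and without each array except DBA replicate 3. Of 4 genes of eicosanoid synthesis, the pathway by which tuft cells make leukotrienes and prostaglandins, 0 were called (limma) and 1 had an unadjusted p under 0.05. The share called of all genes was 25.0%. All 4 differences were below 0, with a median of -0.22. The largest differences there were those of Hpgds, a prostaglandin D synthase gene (-0.38 ± 0.19), and Alox5, the 5-lipoxygenase gene (-0.25 ± 0.10). Of 3 transcription factor genes and 2 keratin genes tested, 0 were called (limma), against 25.0% of all genes, and 0 in each group had an unadjusted p under 0.05. The tested transcription factor genes with the largest differences were Sox9 (-0.17 ± 0.14) and Runx1 (0.04 ± 0.16), where another Runx1 probe set was called in the opposite direction. The keratins Krt8 (0.04 ± 0.04) and Krt18 (-0.02 ± 0.06), of simple epithelium, were bright and lay close together in both crosses. Bmx, a Tec family kinase gene named after its values were seen, was below the 40th percentile on all arrays and read 4.34, 4.17 and 3.78 on the AKR arrays and 5.15, 5.18 and 5.22 on the DBA arrays, without overlap.

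**Figure D3:**
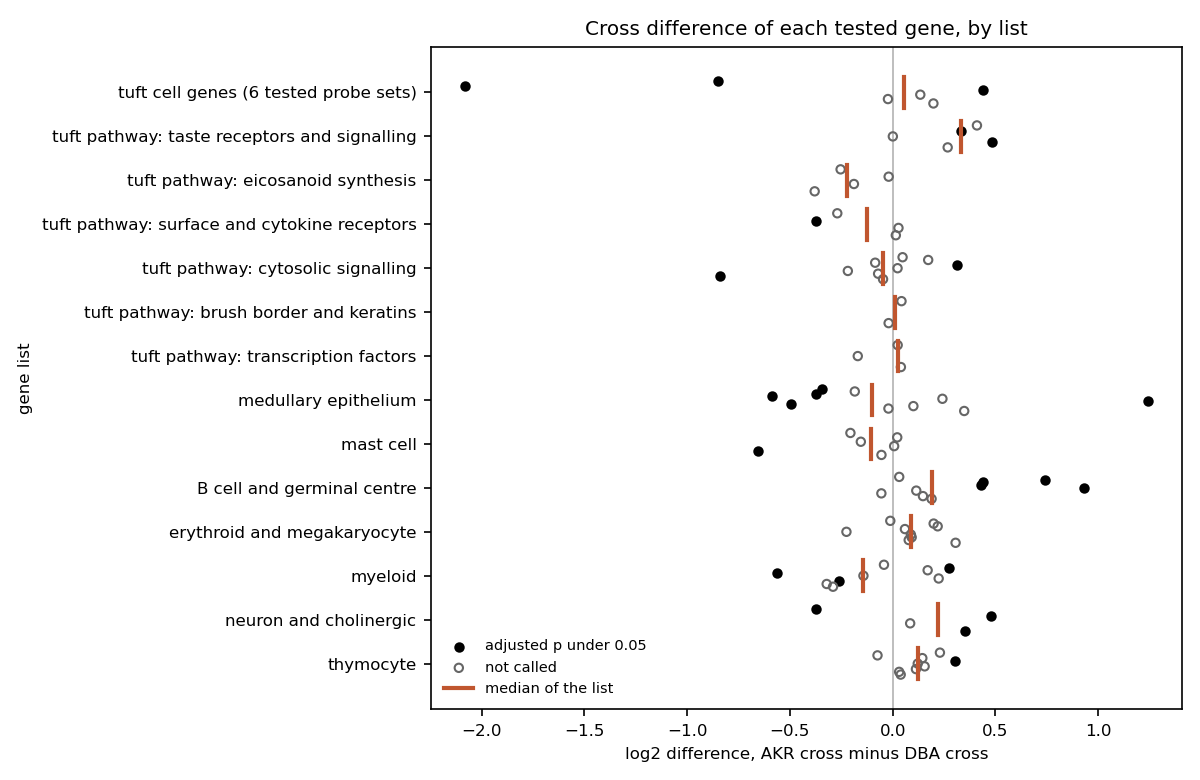
The log2 difference (AKR cross minus DBA cross) of each tested gene by list, with filled points for genes called at an adjusted p under 0.05 (limma), open points for the others and an orange line at the median of each list. Rgs13 (-2.08) and Avil (-0.85) lie at the left of the top row. The tuft pathway rows together lie on both sides of 0, with the taste row at or above 0 and the eicosanoid row below 0.

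Markers of other cell types that hold these genes were read beside them. Of 9 tested B cell and germinal centre genes, 4 were called, all higher in the AKR cross (13.1% of all genes), and 5 were not called, among them the germinal centre genes Bcl6, S1pr2 and Mef2b. Their summed linear signal ran from 2098 to 2206 on the AKR arrays and from 1877 to 1923 on the DBA arrays. Cr2, complement receptor 2 (0.93 ± 0.11, adjusted p = 0.000478, limma), and Cd79a, a chain of the B cell receptor (0.74 ± 0.10, adjusted p = 0.00103, limma), were among the 4. The count was 2 without AKR replicate 1, AKR replicate 3 or DBA replicate 3, and 3 without each of the other arrays. Of 6 tested mast cell genes, 1 was called, higher in the DBA cross (11.9% of all genes). It was Hdc, the histidine decarboxylase gene, which other myeloid cells also express. Hdc read 7.32, 7.37 and 7.33 on the AKR arrays and 8.08, 7.98 and 7.92 on the DBA arrays, a difference of -0.65 ± 0.08 (SE, adjusted p = 0.000652, limma). The summed linear signal of the mast cell genes ran from 445 to 496 on the AKR arrays and from 569 to 595 on the DBA arrays. Hdc alone separated these sums: the 5 other tested mast cell genes, none of them called, summed to 298, 331 and 284 on the AKR arrays and 325, 318 and 327 on the DBA arrays, which overlap. The defining mast cell genes Fcer1a, Ms4a2 and Tpsab1 were below the 40th percentile on all arrays. Without AKR replicate 2, 2 mast cell genes were called.

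Medullary epithelial genes, the setting in which thymic tuft cells lie, went both ways. Of 10 tested, 4 were called higher in the DBA cross (11.9% of all genes), 5 were not called and 1 had a call on the AKR side (13.1%). Their summed linear signal ran from 4280 to 5139 on the AKR arrays and from 4547 to 4734 on the DBA arrays. Ly6d, an uncalled gene and the brightest of the 10, weighed most in these sums. It read 11.3, 10.7 and 11.0 in the AKR cross against 10.5, 10.5 and 10.9 in the DBA cross. The overlap of the sums therefore does not show that the other medullary genes as a set were alike. Without DBA replicate 3, 2 of the 10 genes were called higher in the AKR cross, as without AKR replicate 2. Epcam, an epithelial adhesion gene (-0.59 ± 0.09, adjusted p = 0.00140, limma), and Fezf2, a transcription factor gene of medullary self antigen expression (-0.50 ± 0.10, adjusted p = 0.00674, limma), had the direction of Avil, and Cldn4, a tight junction gene, had the opposite one (1.24 ± 0.13, adjusted p = 0.000213, limma). Another Epcam probe set was tested and was not called.

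For Gfi1b, 0 of 9 tested erythroid and megakaryocyte genes were called by limma, against 25.0% of all genes, and 1 had an unadjusted p under 0.05. Without AKR replicate 1 the count was 1 higher in the DBA cross and without DBA replicate 3 it was 1 higher in the AKR cross. Their summed linear signal ran from 735 to 879 on the AKR arrays and from 748 to 795 on the DBA arrays. For Plcb2, 3 of 9 tested myeloid genes were called. Of these, 2 were on the DBA side (11.9% of all genes) and 1 on the AKR side (13.1%). The summed linear signal of the 9 myeloid genes ran from 11630 to 12081 on the AKR arrays and from 11328 to 12090 on the DBA arrays. For Chat, the other cholinergic genes Slc18a3 and Slc5a7 were below the 40th percentile on all arrays, as were 6 of the 10 neuronal genes in all. Of 4 neuronal genes tested, 3 were called, 2 of them on the AKR side (13.1% of all genes) and 1 on the DBA side (11.9%). These counts were 0 and 0 without AKR replicate 2, 1 and 0 without DBA replicate 3, and 1 and 1 without AKR replicate 1, AKR replicate 3 or DBA replicate 2. Their summed linear signal ran from 381 to 399 on the AKR arrays and from 360 to 375 on the DBA arrays. The part of these other cell types in the differences of Rgs13 and Avil was not tested.

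Genes beside Rgs13 and Avil on their chromosomes were read next, since the crosses differ in 1 parental genome. The order of genes is that of RefSeq assembly GRCm38.p6, and the nearest tested genes were taken with no limit on distance. Of the 6 tested genes nearest to Rgs13 on chromosome 1, 2 were called, both on 1 side of it and both higher in the DBA cross (11.9% of all genes). They were Pla2g4a, a cytosolic phospholipase A2 gene (-0.51 ± 0.10, adjusted p = 0.00513, limma), and Ptgs2, the cyclooxygenase 2 gene (-0.59 ± 0.10, adjusted p = 0.00266, limma). The neighbouring family genes Rgs1 and Rgs2 were not called. Rgs1 read 6.68, 8.60 and 8.41 on the AKR arrays and 7.88, 9.36 and 9.28 on the DBA arrays, so that array 1 was low in each cross and the crosses overlapped, with a difference of -0.94 ± 0.52 (SE). Rgs2 differed by -0.33 ± 0.14 (SE) and its crosses overlapped.

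Of the 6 tested genes taken around Avil on chromosome 10, 3 were not called and 3 were called, all higher in the AKR cross (13.1% of all genes). They were Atp23 (0.49 ± 0.15), Tsfm, a mitochondrial translation factor gene (0.35 ± 0.08), and Cdk4, a cyclin-dependent kinase gene (0.42 ± 0.06). Cdk4 read 10.8, 10.7 and 10.8 on the AKR arrays and 10.4, 10.4 and 10.3 on the DBA arrays, and its crosses did not overlap. The 3 adjusted p-values were 0.0437, 0.0130 and 0.00153 in that order (limma). The Atp23 call was lost without a filter, without the variance trend and without each array except DBA replicate 1, and the Tsfm call without DBA replicate 2 (adjusted p = 0.0535, limma). Of the 6 tested genes taken around Dclk1 on chromosome 3, 1 was called, Tm4sf1, higher in the DBA cross (11.9% of all genes). Its difference was -0.31 ± 0.09 (adjusted p = 0.0295, limma), and this call was lost without each array except DBA replicate 3.

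**Figure D4:**
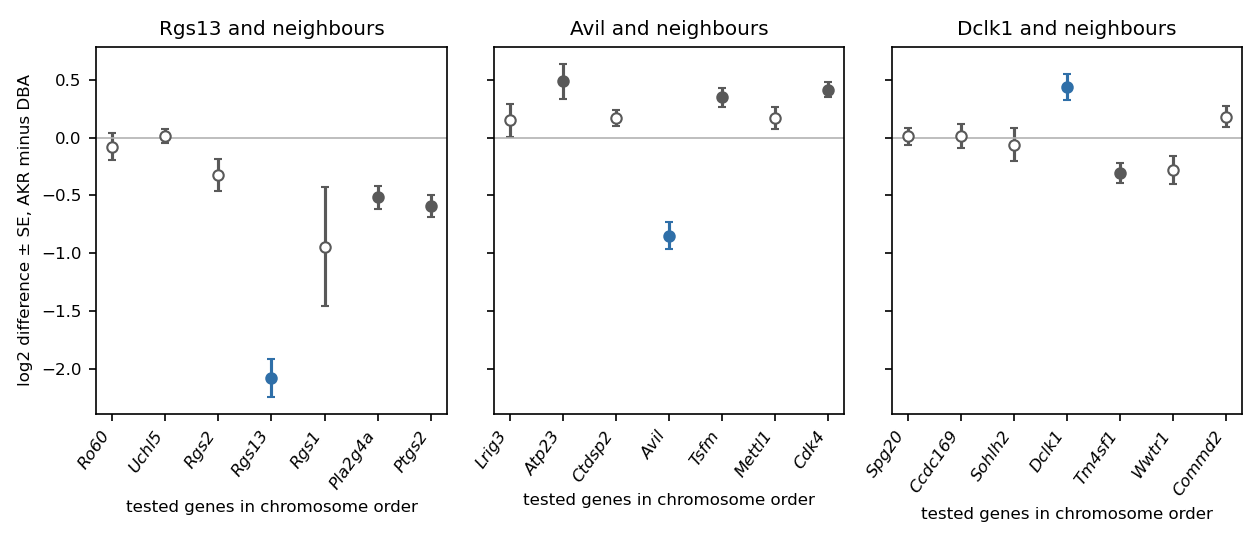
The log2 difference (AKR cross minus DBA cross, with the SE as bars) of Rgs13, Avil and Dclk1 in blue and of the 3 nearest tested genes on each side in grey, in chromosome order, with filled points for genes called at an adjusted p under 0.05 (limma). Genes after Rgs13 lie below 0, and all 6 genes around Avil (-0.85) lie above 0.

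The genes with the pattern most like that of Avil over the 6 arrays, by Pearson correlation of log2 values, were Sectm1a, Gm20199, Elavl4, Rprd2 and Cxcl10, with r from 0.994 to 0.997. Those most like Rgs13 were Ccl20, 2310030G06Rik, Vnn3, Sh3d19 and Niban1, with r from 0.996 to 0.997. A correlation above 0.95 was reached by 268 genes for Avil and 293 genes for Rgs13, of the 12849 genes compared. These correlations over 6 arrays in 2 crosses hold the difference between the crosses and are given as a description. Elavl4, an RNA-binding protein gene of neurons, was the one of these 10 with the largest difference, at 5.98, 6.03 and 5.88 on the AKR arrays and 7.76, 7.20 and 7.51 on the DBA arrays. Niban1, among those most like Rgs13, read 7.14, 7.42 and 7.33 against 8.34, 8.23 and 8.20. All 10 were higher in the DBA cross with no overlap, against 16.3% of all probe sets. Their choice by likeness to Avil or Rgs13 made this nearly certain, so nothing is read from it. Gm20199 passed the filter only through the DBA arrays.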

How the data were processed

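The 6 arrays were placed in their crosses by sample title, and all 6 entered every comparison. The authors deposited log2 expression values for 45101 probe sets, of which 64 were controls and were left out. MAS5 and RMA are listed, with no role or version, per the submitters' processing notes. Which of them made the deposited values is not stated there. The deposited values have nearly the same distribution on every array. As their method is not stated, differences of dim probe sets can be too small or too large, and their folds are not exact. Array correlations ran from 0.994 to 0.996 within a cross and from 0.984 to 0.989 between crosses, and 0 arrays were identical. No detection calls or batches were used.

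The deposited values were tested without further normalization by limma 3.58.1 (lmFit, then eBayes with a variance trend, two-sided; R 4.3.3), and the fit was tested on simulated data. Probe sets that did not pass the filter have the SE of a fit over all 45037 probe sets. A gene of a list was represented by its brightest tested probe set with 1 symbol, with p-values adjusted over all probe sets. Summed linear signals add 2 to the power of each tested gene's value. In the annotation 34945 probe sets had 1 symbol, 932 had several and 9160 had none, and Emr1 was read as Adgre1. Sequences are from RefSeq. Figures were drawn with matplotlib 3.10.9.

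The genes, lists and tests were chosen with earlier results of these data known. By rule the text names every probe set of the 10 genes, called genes of the tuft pathway lists or up to 2 of a list with none, up to 3 called genes of other lists, the 3 nearest tested genes on each side, and the 5 genes most alike in pattern. Only some of these list genes are given. The alternatives were 2 filters, 2 normalizations, 2 variance models, array weights, a replicate block, each array left out, and averaging the probe sets of each gene.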

Additional observations from a re-analysis of the deposited data

How the results depend on the processing

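Of the probe sets of the 10 genes, 3 were called, 5 without a filter on dim probe sets and 1 with the filter at the 60th percentile, which tests fewer of them. With 1 array left out the count ran from 2 to 3, and in the other settings it was 3. No called probe set changed sign in any setting. Of the 27 further tuft pathway genes tested, 5 were called, 2 on the DBA side and 3 on the AKR side, and from 1 to 5 with 1 array left out. The side with more calls depended on the filter. Without a filter 6 of 39 were called, 4 on the DBA side and 2 on the AKR side. Bmx and Vil1, both below the 40th percentile on all arrays, were among those 4. With the filter at the 60th percentile 4 of 19 were called, 3 on the DBA side and 1 on the AKR side. With robust eBayes the count was 7 of 27. Pairing by replicate number is not established: the labels state none, and deviations from the cross means correlated at 0.39, 0.07 and 0.37 for same-numbered arrays, although 5 of 6 arrays correlated best with their own number. With the replicate number as a block, 10 of the 27 pathway genes and 3 probe sets of the 10 genes were called, and Rgs1 was called (adjusted p = 5.87e-05, limma). The share of all genes called in these alternative settings is not given here. A move of the counts is therefore not read as particular to the pathway genes. The cause of the moves other than that at the 60th percentile was not tested. Plcb2 changed sign in 2 of 14 settings and was called in 0. The number of arrays limits the precision, and 12 of 19 probe sets lay below the 40th percentile on every array.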
